A study of Mus musculus with 8 samples.

Results

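The mRNAs of 10 genes of the axonal cytoskeleton and of axonal transport were followed in cochleae of WT and *Opa1*+/- mice. They encode the neurofilament subunits (*Nefl*, *Nefm*, *Nefh* and *Ina*), the axonal cytoskeleton and growth proteins Map1b and Gap43, and the machinery that carries mitochondria along axons (*Kif5a*, *Trak1*, *Trak2* and *Rhot1*). *Trak1*, *Trak2* and *Rhot1* are also used by many other cell types, so their levels in whole cochlea are not those of neurons alone. All were picked by gene symbol for these roles, and all 10 were found among the 47628 named entries of the count tables. All 10 passed the filter on low counts, with 150 to 32984 counts in any mouse. Whole cochlear RNA had been sequenced from 8 untreated mice at 21 days of age. The WT group held animals 4, 5, 6 and 8. The *Opa1*+/- group held animals 2 and 7 and a pair with 3-digit numbers, of which the lower is called A and the higher B here. The *Opa1*+/- mice are knock-in heterozygotes that carry a deletion of 4 bases found in human *OPA1* disease on 1 allele in every cell, the WT mice were littermates, and both were of a mixed C57BL/6J and 129Sv/Pas background. The labels do not give the sex of the mice. Library depth was 15978051 to 20828030 counts on named genes.

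Neurofilaments are the intermediate filaments of axons. Light (*Nefl*), medium (*Nefm*) and heavy (*Nefh*) subunits and internexin alpha (*Ina*) assemble side by side, and their abundance sets the calibre of large myelinated axons such as those of the auditory nerve. Mitochondria reach the distal axon on microtubules: the kinesin heavy chain KIF5A is the motor, TRAK1 and TRAK2 are the adaptors that link motors to mitochondria, and RHOT1 (Miro1) is the calcium-binding GTPase that anchors them in the outer mitochondrial membrane. *Opa1* itself encodes the GTPase of the inner mitochondrial membrane that fuses mitochondria and shapes their cristae.

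What distinguishes the neurofilament subunits at the sequence level is the tail, where the medium and heavy subunits carry repeats of lysine-serine-proline that are phosphorylated in mature axons. In the coding sequences of the GENCODE vM21 annotation of GRCm38, the transcript Nefh-201 (1090 codons) held 51 such repeats between codons 522 and 889. Nefm-201 (848 codons) held 4, between codons 501 and 611. Nefl-201 (543 codons) and Ina-201 (501 codons) held 0. Shown are 120 bases from the tail of each repeat-bearing subunit, because these repeats set the longer subunits apart from the products of *Nefl* and *Ina*. They are read in the sense of the gene, with the codons of each repeat in capitals:
Nefh, chr11:4940938-4941057 (minus strand, exon 4 of 4, codons 521 to 560, 7 repeats): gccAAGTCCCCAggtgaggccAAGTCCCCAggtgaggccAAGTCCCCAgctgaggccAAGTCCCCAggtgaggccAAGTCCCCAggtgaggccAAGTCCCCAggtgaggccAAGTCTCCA
Nefm, chr14:68121063-68121182 (minus strand, exon 3 of 3, codons 468 to 507, 2 repeats): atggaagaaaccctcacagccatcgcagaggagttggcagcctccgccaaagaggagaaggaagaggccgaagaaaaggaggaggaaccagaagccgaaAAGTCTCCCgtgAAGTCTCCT
The heavy subunit repeats a near-identical unit over the whole stretch, whereas the stretch of the medium subunit was placed to run up to its first 2 repeats, which lie well before the end of that protein. The tandem stretch of *Nefh* is longer than a read of 80 nucleotides, and how reads inside it were placed was not tested.

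Before the genotypes were compared, the libraries were examined against their labels. *Opa1* was 118.7, 125.9, 111.7 and 122.4 CPM (counts scaled to the size of the library, with edgeR's TMM factors) in WT mice 4, 5, 6 and 8. In *Opa1*+/- mice 2, 7, A and B it was 63.5, 68.4, 60.4 and 70.02 CPM. Every *Opa1*+/- mouse was therefore below every WT mouse, with a log2 fold change of -0.87 (SE 0.0677, adjusted p = 0.00515, edgeR's quasi-likelihood test). Without *Opa1*+/- mouse 2 the adjusted p was 0.0704 (log2 fold change -0.85, edgeR), and without A and B together it was 0.26. The summed level of 24 neuronal genes of the spiral ganglion, among them *Snap25* and *Calb2*, was 5324 to 5954 CPM in the WT group and 5149 to 6054 CPM in the *Opa1*+/- group, so neuronal RNA was present in every library. The genotypes did not differ in this sum beyond the spread between mice (exact permutation test, two-sided, p = 0.8). Hair cell genes, led by *Pvalb*, *Otof* and *Cib2*, summed to 283.9 to 484.9 CPM, and genes of Schwann cells, blood, marrow, muscle and bone were found in all 8 libraries too. None of these summed lists differed between the genotypes beyond the spread between mice (exact permutation test, lowest p = 0.171, adjusted p = 0.857 over 8 lists). The erythroid sum had that lowest p, and without WT mouse 4 its WT values all lay below those of the *Opa1*+/- mice (exact permutation p = 0.0286, the smallest that 3 against 4 mice can give). By gene, the mean was higher in *Opa1*+/- mice for 16 of 17 Schwann cell and myelin genes and 14 of 14 erythroid genes. It was so for 15 of 24 neuronal, 8 of 16 marrow, 6 of 15 hair cell, 3 of 11 bone and 0 of 15 muscle genes. The genes of a list share the same mice, so these counts are no further test.

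The library of WT mouse 6 stood apart. A list of 18 genes of nociceptive sensory neurons (pain-sensing neurons of cranial and spinal ganglia) was drawn up after this library had been noticed. Its summed level was 119.5 CPM in WT mouse 6 and 591.8 to 889.5 CPM in the other 7 mice, and all 18 genes were lowest in WT mouse 6. *Scn10a*, a sodium channel of pain-sensing neurons, had 17 counts in WT mouse 6 and 1523 to 2535 in the other 7. *Mrgprd* had 3 counts in WT mouse 6, against at least 245 in the others, and *Npy2r* and *Oprm1* had 0. WT mouse 6 also had the highest sum of 15 skeletal muscle genes, at 2924 CPM against 70.8 to 1531 CPM. The sum of 15 hair cell genes was highest there too, at 484.9 CPM against 283.9 to 377.3 CPM. *Pvalb*, which fast muscle and spiral ganglion neurons also express, took 244.9 CPM of it, against 107.4 to 154.4 CPM in the others, and the other 14 genes summed to 240.0 CPM against 162.1 to 222.9 CPM. The sum of bone genes was also highest there, at 3333 CPM against 2451 to 3119 CPM. The part of these tissues in the values of this mouse was not tested. All comparisons include this mouse, and the fold change without it is given for each of the 10 genes. In bulk RNA, fewer cells of a type and less RNA per cell cannot be told apart.

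None of the 10 genes passed the test of a difference between WT and *Opa1*+/- cochleae. At an adjusted p under 0.05, 0 of 10 were called by edgeR, against 0.0258% of all 19366 genes tested. None had an unadjusted p under 0.05, a level that 3.51% of all tested genes passed as higher in *Opa1*+/- and 3.22% as lower. In none were the 4 *Opa1*+/- values all above or all below the 4 WT values, as they were in 1.98% (higher) and 2.33% (lower) of all tested genes. DESeq2's Wald test and limma voom also called 0 of 10. The log2 fold changes were negative in 6 genes and positive in 4, with a median of -0.013 beside 3.95e-04 over all genes tested, and the adjusted p-values ran from 0.916 to 0.983. Without WT mouse 6, still 0 of 10 were called.

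The confidence intervals bound a difference in whole cochlear RNA only, not one within neurons. Apart from *Gap43*, the 95% confidence intervals of the remaining 9 genes lay between a 0.760-fold and a 1.24-fold level in *Opa1*+/- relative to WT mice, and the coefficient of variation over the 8 mice was 4.65% to 17.8%. The tightest interval was that of *Rhot1*, from 0.902-fold to 1.09-fold. Only 2 of the 10 genes had an SE under 0.0755, the median SE of tested genes with a mean over 50 CPM. With 1 mouse left out, the interval of *Ina* reached down to 0.702-fold (without *Opa1*+/- mouse B). It reached up to 1.33-fold without *Opa1*+/- mouse 2. For *Gap43* the interval ran from 0.507-fold to 2.40-fold, a width set by WT mouse 6, without which it ran from 0.635-fold to 1.178-fold.

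**Figure D1:**
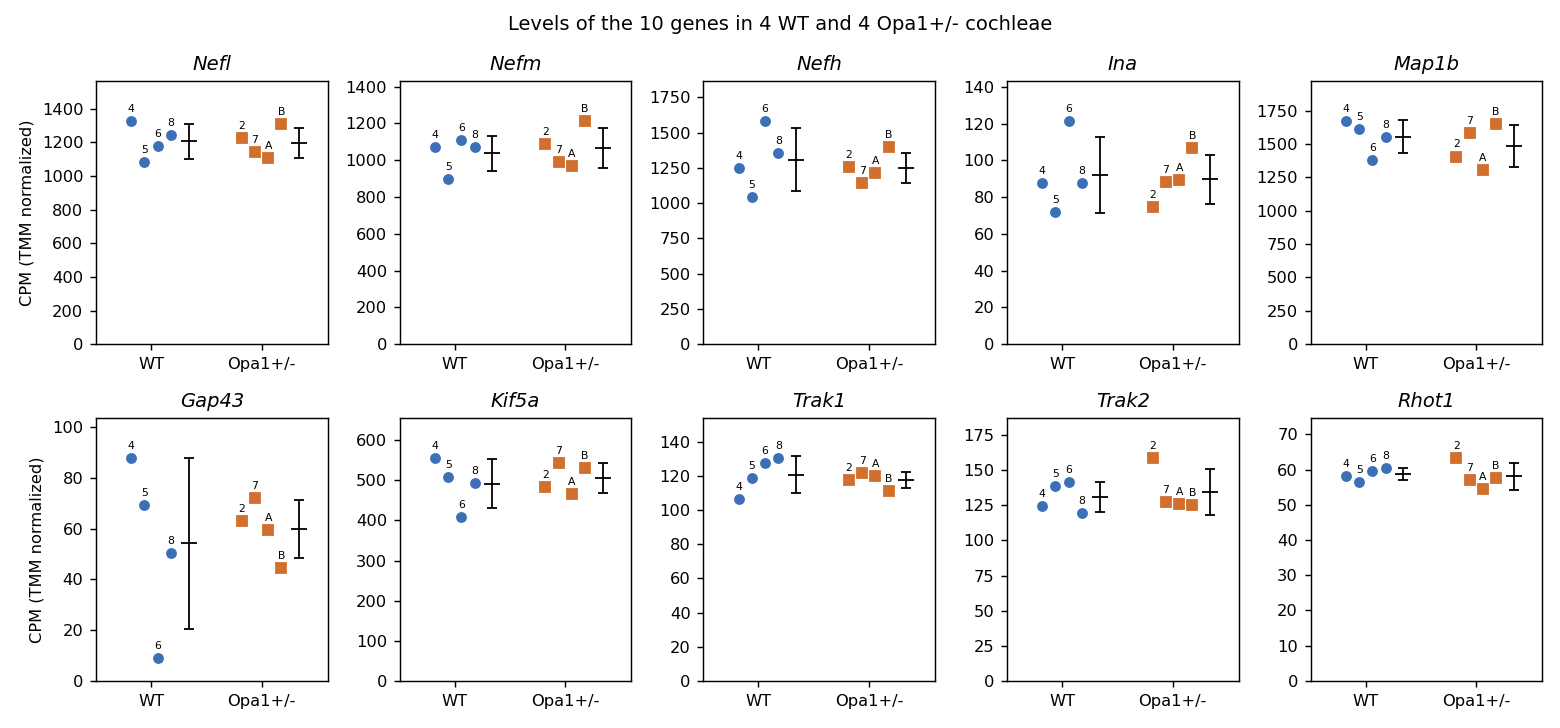
Level of each gene (y axis, TMM-normalized CPM, from 0) in each WT mouse (circles) and *Opa1*+/- mouse (squares), with the names of the mice beside the points and the mean ± SD of 4 mice as black bars. The genotypes overlap in all 10 panels, and WT mouse 6 lies far below the other mice in *Gap43*, at 8.96 CPM.

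**Figure D2:**
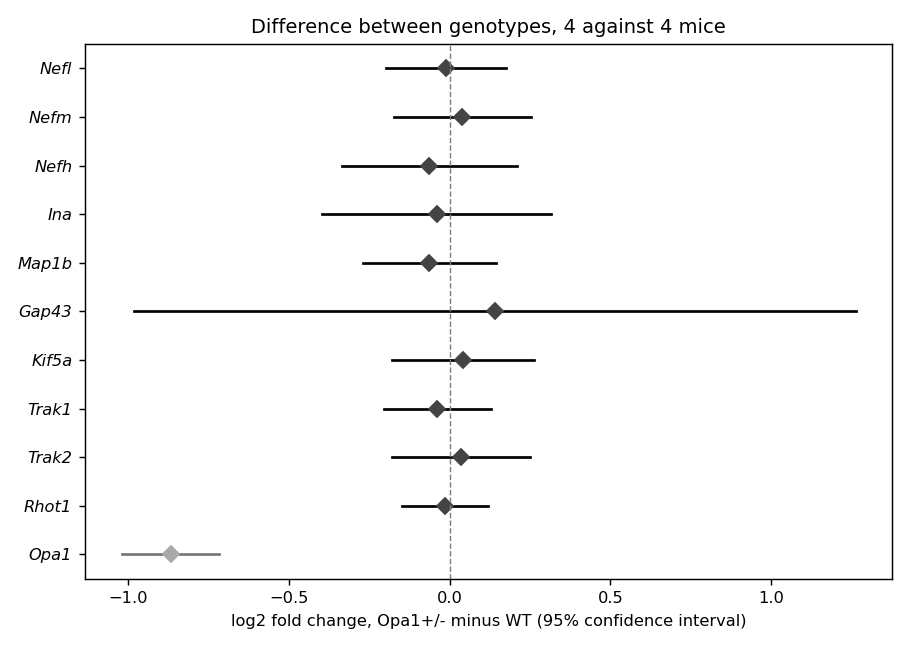
Log2 fold change of *Opa1*+/- relative to WT mice (x axis) for the 10 genes and for *Opa1*, with points for the edgeR estimate and lines for its 95% confidence interval. All 10 intervals include 0, the one of *Gap43* is the widest (-0.98 to 1.26), and that of *Opa1* lies wholly below 0.

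By CPM, which takes no account of the length of an mRNA, the light, medium and heavy subunits drew many of the counts. *Nefl* ranked 54, *Nefm* 63 and *Nefh* 50 of the 19366 genes by mean CPM, while *Ina* ranked 1828. The 4 subunits together took 3642 ± 384 CPM (SD, n = 4) in the WT group and 3603 ± 309 CPM (SD, n = 4) in the *Opa1*+/- group.

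*Nefl* (chromosome 14, 68083863 to 68089095, plus strand) encodes the light subunit, which every neurofilament needs. It was 1325, 1081, 1174 and 1241 CPM in WT mice 4, 5, 6 and 8, and 1224, 1141, 1109 and 1309.7 CPM in the *Opa1*+/- mice 2, 7, A and B. The 4 *Opa1*+/- values all fell inside the range of the WT values. This gave a log2 fold change of -0.011 (SE 0.0826, adjusted p = 0.983, edgeR), and its interval spanned 0.873-fold to 1.13-fold. Without WT mouse 6 the log2 fold change was -0.023.

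*Nefm* (chromosome 14, 68082590 to 68124846, minus strand) encodes the medium subunit. The WT mice had 1073, 896.2, 1109.5 and 1072 CPM, and the *Opa1*+/- mice had 1090.2, 992.5, 970.1 and 1212 CPM, in the same order of animals. WT mouse 5 was the lowest and *Opa1*+/- mouse B the highest of the 8, and without either of them the small difference changed sign. Fitted over all mice, the log2 fold change was 0.039 (SE 0.0946, adjusted p = 0.9501, edgeR), and without WT mouse 6 it was 0.073.

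*Nefh* (chromosome 11, 4938754 to 4948064, minus strand) encodes the heavy subunit with the long repeat tail shown above. Its WT values were 1251, 1042, 1581 and 1353 CPM and its *Opa1*+/- values 1254, 1142, 1213 and 1397 CPM. The WT mice were the more scattered group, since they held both the lowest value (mouse 5) and the highest (mouse 6). The log2 fold change of -0.063 (SE 0.121, adjusted p = 0.938, edgeR) became 0.042 without WT mouse 6.

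*Ina* (chromosome 19, 47014698 to 47025327, plus strand) encodes internexin alpha. It was far less abundant, at 87.7, 72.0, 121.4 and 87.8 CPM in the WT group and 74.5, 88.2, 89.3 and 106.7 CPM in the *Opa1*+/- group. As with *Nefh*, WT mouse 6 was the highest of the 8 mice and WT mouse 5 the lowest. The log2 fold change was -0.040 (SE 0.158, adjusted p = 0.9701, edgeR), and 0.12 without WT mouse 6.

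The use of strand in counting is not given in the sources used here, which bears on 3 of these genes. *Nefl* lies within the longer of the 2 annotated *Nefm* transcripts on the opposite strand, and the 2 genes share 1108 bases of exon. *Ina* shares 456 bases of exon with *Nt5c2*, also on the opposite strand. Reads from these stretches could have been assigned to either gene or to neither.

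Ratios within a mouse do not depend on how libraries are scaled, so subunit proportions were compared as well. *Nefm* relative to *Nefl* was 0.8096, 0.8292, 0.9447 and 0.8638 in WT mice 4, 5, 6 and 8 and 0.8906, 0.8695, 0.875 and 0.9254 in *Opa1*+/- mice 2, 7, A and B. With all 8 mice the genotypes overlapped (log2 difference 0.049, exact permutation test, two-sided, p = 0.4, adjusted p = 0.971 over 6 ratios). The overlap came from WT mouse 6. Without it, the 3 remaining WT mice (0.8096 to 0.8638) all lay below the 4 *Opa1*+/- mice (0.8695 to 0.9254), a ratio 6.71% higher in *Opa1*+/- mice, with an exact p of 0.0286. With any other mouse left out, the log2 difference was 0.019 to 0.060 and the exact permutation p was 0.371 to 0.771. The 0.0286 is the smallest p that 3 against 4 mice can give, and it did not pass adjustment over the 6 ratios (exact permutation test, adjusted p = 0.171).

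The other proportions of neurofilament subunits showed no separation with or without that mouse. *Nefh* relative to *Nefl* was 1.09 ± 0.185 (SD, n = 4) in the WT group and 1.05 ± 0.0420 (SD, n = 4) in the *Opa1*+/- group (exact permutation test, p = 0.857), with the highest value, 1.346, in WT mouse 6. The log2 difference turned from -0.040 to 0.068 without that mouse (exact permutation test, p = 0.343). *Ina* relative to *Nefl* was 0.0767 ± 0.0179 (SD, n = 4) and 0.0750 ± 0.00962 (SD, n = 4) (exact permutation test, p = 0.971). WT mouse 6 was again the highest, at 0.1034 against 0.0662 to 0.0708 in the other 3 WT mice, and without it the log2 difference turned from -0.016 to 0.14 (exact permutation test, p = 0.314).

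Across the 8 mice *Nefl* and *Nefm* rose and fell together, on log2 CPM. Pearson's r was 0.834 (exact permutation test, p = 0.0100, adjusted p = 0.0300 over 3 relations) and Spearman's rho was 0.714 (exact permutation p = 0.0576, adjusted p = 0.104). Without WT mice 5 and 4, the mice farthest from the median of *Nefl*, r was 0.904 over 6 mice, and for deviations from the genotype means it was 0.853. The genes share exon bases and are both neuronal, and the part of either in this value was not tested. Among 17965 genes compared, the r of 0.834 ranked 44 for *Nefl* and 89 for *Nefm*. The other pairs of subunits were not tested. Their r was 0.847 (*Nefh* and *Ina*), 0.809 (*Nefm* and *Nefh*), 0.626 (*Nefm* and *Ina*), 0.504 (*Nefl* and *Nefh*) and 0.292 (*Nefl* and *Ina*). *Nefl* and the summed neuronal genes gave r = 0.654 (exact permutation p = 0.0880, adjusted p = 0.132) and rho = 0.690 (exact permutation p = 0.0694, adjusted p = 0.104).

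**Figure D3:**
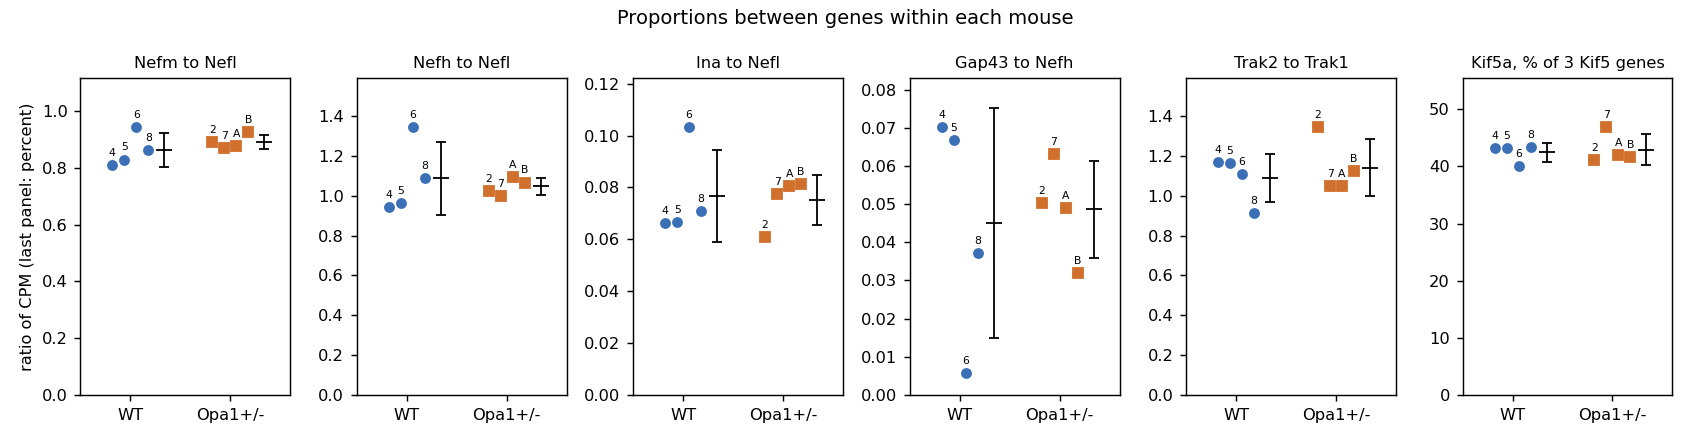
Proportions between genes within each mouse (y axis, ratio of CPM, in the last panel *Kif5a* as a percent of the 3 *Kif5* genes), for WT mice (circles) and *Opa1*+/- mice (squares) with the name of each mouse and the mean ± SD of 4 mice. WT mouse 6 is the highest in the 3 neurofilament ratios, and without it the WT mice lie below the *Opa1*+/- mice for *Nefm* to *Nefl*.

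*Map1b* (chromosome 13, 99421446 to 99516540, minus strand) encodes a microtubule-associated protein of growing axons and was the most abundant of the 10 by CPM. It was 1670.4, 1610.5, 1382 and 1548 CPM in WT mice 4, 5, 6 and 8 and 1406, 1579.9, 1308 and 1652 CPM in the *Opa1*+/- mice 2, 7, A and B. The groups overlapped, although *Opa1*+/- mouse A lay below every WT mouse. The log2 fold change was -0.063 (SE 0.0923, adjusted p = 0.916, edgeR), the lowest adjusted p of the 10 genes. It stayed negative under all 18 alternatives, from -0.12 to -0.0024, and passed the threshold in none. Without WT mouse 6 it was -0.11.

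*Gap43* (chromosome 16, 42248442 to 42340651, minus strand) encodes a membrane protein of growth cones and regenerating axons. It was 88.0, 69.5, 8.96 and 50.5 CPM in WT mice 4, 5, 6 and 8, and in the *Opa1*+/- group it was 63.2, 72.0, 59.4 and 44.7 CPM. WT mouse 6 had 150 counts, and its level was 0.142 of the median of the other 7 mice, which by themselves spanned 44.7 to 88.0 CPM. Its log2 fold change was 0.14 (SE 0.4996, adjusted p = 0.965, edgeR) with all mice and -0.21 (adjusted p = 0.778, edgeR) without WT mouse 6.

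The low *Gap43* of WT mouse 6 accompanied the low sum of the nociceptive genes described above. *Prph*, which encodes the intermediate filament peripherin of small sensory and type II spiral ganglion neurons, moved the same way, at 76.1 CPM in WT mouse 6 and 220.8 to 344.5 CPM in the other 7. *Tubb3*, the neuronal beta tubulin, was 212.5 CPM there against 300.5 to 397.8 CPM. The summed spiral ganglion genes were 5582 CPM in WT mouse 6, inside the range of the other mice. With the nociceptive sum as a covariate, chosen after the data were seen, the log2 fold change of *Gap43* was 0.0071 (adjusted p = 0.991, edgeR). Both the sum and *Gap43* are by far lowest in WT mouse 6, so this value is no separate support for a link between them.

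Since WT mouse 6 lies apart, the 10 genes were compared over the 7 other mice with the nociceptive sum in a family of 10 relations drawn up after the data were seen. *Kif5a* gave r = 0.83 (exact permutation p = 0.0244, adjusted p = 0.164) and rho = 0.857 (exact permutation p = 0.0238, adjusted p = 0.119). *Gap43* gave r = 0.795 (exact permutation p = 0.0329, adjusted p = 0.164) and rho = 0.714 (exact permutation p = 0.0881, adjusted p = 0.294). *Map1b* gave r = 0.702 (exact permutation p = 0.0784, adjusted p = 0.261) and rho = 0.857 (exact permutation p = 0.0238, adjusted p = 0.119). No relation passed the adjustment. Without WT mice 4 and 5, the farthest from the median, r over the 5 mice left was 0.859 for *Kif5a*, 0.586 for *Map1b* and 0.480 for *Gap43*, so the last rests partly on those mice. The other 7 genes gave r between -0.594 (*Trak1*) and 0.186 (*Nefl*).

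**Figure D4:**
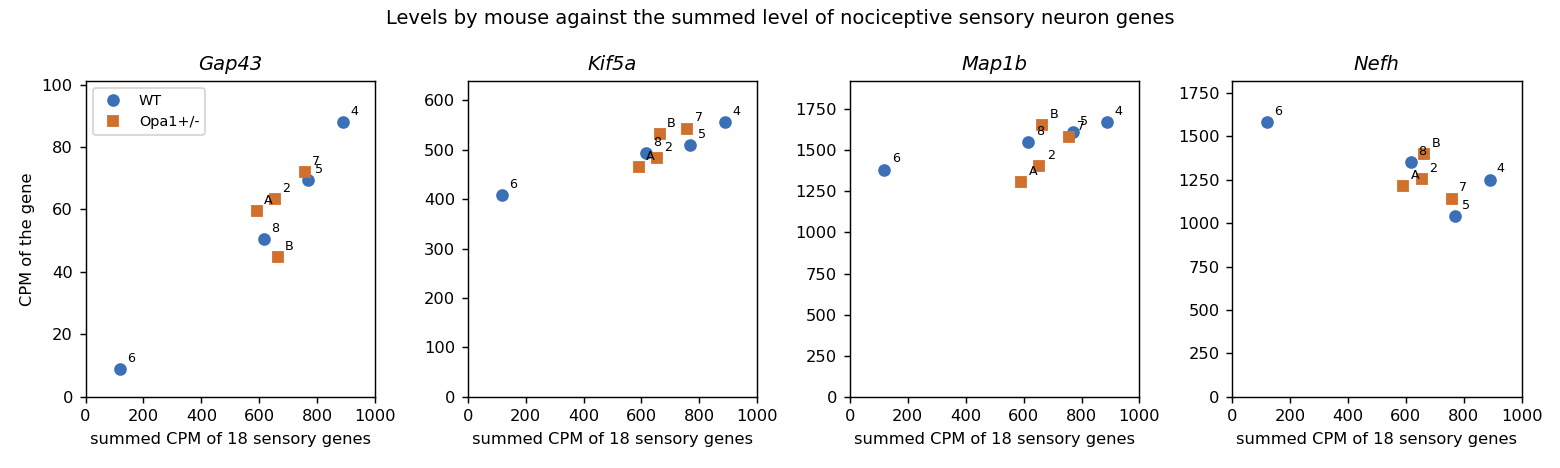
CPM of *Gap43*, *Kif5a*, *Map1b* and *Nefh* (y axes, from 0) against the summed CPM of 18 genes of nociceptive sensory neurons (x axis) in each WT mouse (circles) and *Opa1*+/- mouse (squares), with the name of each mouse. WT mouse 6 sits alone at 119.5 CPM on the x axis, lowest of the 8 in *Gap43* and *Kif5a* and highest in *Nefh*.

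*Kif5a* (chromosome 10, 127225696 to 127263348, minus strand) encodes the neuronal kinesin-1 heavy chain. It was 555.7, 509.0, 407.9 and 492.6 CPM in WT mice 4, 5, 6 and 8 and 483.4, 542.6, 465.5 and 531.4 CPM in the *Opa1*+/- mice 2, 7, A and B. WT mouse 6 was the lowest, and the other 7 mice lay between 465.5 and 555.7 CPM. With all mice the log2 fold change was 0.042 (SE 0.0983, adjusted p = 0.948, edgeR), and without WT mouse 6 it was -0.037.

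The share of *Kif5a* among the 3 kinesin-1 heavy chains did not differ beyond the spread between mice. *Kif5a* made up 43.17, 43.22, 39.99 and 43.47% of the summed CPM of *Kif5a*, *Kif5b* (the ubiquitous chain) and *Kif5c* (the other neuron-enriched chain) in the WT mice, and 41.2, 46.95, 42.01 and 41.69% in *Opa1*+/- mice. The means were 42.5 ± 1.65% (SD, n = 4) and 43.0 ± 2.68% (SD, n = 4), with an exact permutation p of 0.8. The 3 WT mice other than mouse 6 had an SD of 0.162 percentage points (n = 3). *Kif5b* had a log2 fold change of 0.024 (SE 0.0757, adjusted p = 0.963, edgeR) and *Kif5c* of 0.012 (SE 0.0981, adjusted p = 0.984, edgeR).

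*Trak1* (chromosome 9, 121297502 to 121474918, plus strand) and *Trak2* (chromosome 1, 58900449 to 58973430, minus strand) encode the adaptors between motors and mitochondria. *Trak1* was 106.4, 118.8, 127.6 and 130.6 CPM in WT mice 4, 5, 6 and 8 and 117.9, 121.9, 119.7 and 111.2 CPM in the *Opa1*+/- mice 2, 7, A and B, the latter all inside the WT range. Its log2 fold change was -0.038 (SE 0.0743, adjusted p = 0.938, edgeR) and stayed negative under all 18 alternatives, at -0.011 without WT mouse 6.

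*Trak2* was 124.7, 138.6, 141.4 and 119.5 CPM in the WT group. In *Opa1*+/- mice it was 158.8, 127.7, 125.6 and 125.1 CPM, so that mouse 2 alone lay above the WT mice while the other 3 lay between 125.1 and 127.7 CPM. The log2 fold change was 0.036 (SE 0.0950, adjusted p = 0.956, edgeR), -0.052 without *Opa1*+/- mouse 2 and 0.074 without WT mouse 6. The ratio of *Trak2* to *Trak1* was 1.09 ± 0.121 (SD, n = 4) in the WT group and 1.14 ± 0.141 (SD, n = 4) in the *Opa1*+/- group, with an exact permutation p of 0.6. The libraries also held blood, and 14 erythroid genes summed to 7770 to 21554 CPM in the WT group and 15138 to 25124 CPM in the *Opa1*+/- group (exact permutation test, p = 0.171), with a higher mean in the latter for all 14. Without WT mouse 4 the WT sums were 7770 to 12394 CPM and the groups did not overlap (log2 difference 0.94, exact permutation p = 0.0286). Over the 8 mice that sum and *Trak2* gave r = -0.124 (exact permutation p = 0.784, adjusted p = 0.784) and rho = -0.167 (exact permutation p = 0.703, adjusted p = 0.703). Without the 2 WT mice farthest from the median (8 and 6) r was -0.554 over 6 mice.

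*Rhot1* (chromosome 11, 80209019 to 80267907, plus strand) was the steadiest of the 10. It was 58.2, 56.5, 59.6 and 60.5 CPM in the WT mice and 63.3, 57.0, 54.5 and 57.6 CPM in the *Opa1*+/- group, with a highest to lowest ratio of 1.16 over the 8 mice. Its log2 fold change was -0.015 (SE 0.0593, adjusted p = 0.9699, edgeR), and -0.0073 without WT mouse 6. Its paralogue *Rhot2* (Miro2) was similarly steady, at 45.4 ± 2.04 CPM (SD, n = 4) in the WT group and 45.5 ± 1.65 CPM (SD, n = 4) in the *Opa1*+/- group. *Snph*, which encodes syntaphilin, the anchor that holds axonal mitochondria still, was 50.9 ± 5.97 and 51.1 ± 5.38 CPM (SD, n = 4 each), a log2 fold change of 0.0071 (SE 0.1004, adjusted p = 0.993, edgeR). Together *Kif5a*, *Trak1*, *Trak2* and *Rhot1* took 801.9 ± 46.8 CPM (SD, n = 4) in the WT group and 815.8 ± 35.6 CPM (SD, n = 4) in the *Opa1*+/- group.

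Levels of different genes can be compared only per length, here as CPM per kilobase of the joined exons. The light and heavy neurofilament mRNAs led, with *Nefl* at 355.2 ± 26.6 and *Nefh* at 320.3 ± 41.4 CPM per kilobase (SD, n = 8), and their ranges over the mice overlapped. *Nefm* followed at 181.9 ± 16.8 CPM per kilobase (SD, n = 8), below every value of *Nefh*. With the length of the longest annotated transcript in place of the joined exons, *Nefm* stood at 285.8 ± 26.3 CPM per kilobase and its range overlapped that of *Nefh*, since the joined exons of *Nefm* (5782 bases) include the long transcript that runs past *Nefl*.

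Below the neurofilaments came *Map1b* at 95.9 ± 8.60, *Kif5a* at 71.3 ± 6.83, *Gap43* at 37.4 ± 15.5 and *Ina* at 28.1 ± 4.998 CPM per kilobase (SD, n = 8). The ranges of *Map1b* and *Kif5a* did not overlap with each other or with that of *Nefm*, whereas those of *Gap43* and *Ina* did, and *Ina* also met *Trak2*. The range of *Gap43*, from 5.88 in WT mouse 6 to 57.8, took in those of *Trak2*, *Trak1* and *Rhot1* as well. The adaptors and the membrane anchor had the lowest means of the 10. *Trak2* stood at 18.7 ± 1.82, *Trak1* at 9.49 ± 0.629 and *Rhot1* at 7.88 ± 0.367 CPM per kilobase (SD, n = 8). The ranges of *Trak1* and *Rhot1* met, and the order of *Trak1* and *Trak2* depended on the length used, since the longest transcript put *Trak1* at 22.2 and *Trak2* at 21.4 CPM per kilobase. The mRNA of the motor *Kif5a* thus exceeded that of each adaptor and of *Rhot1* in every mouse under either length.

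**Figure D5:**
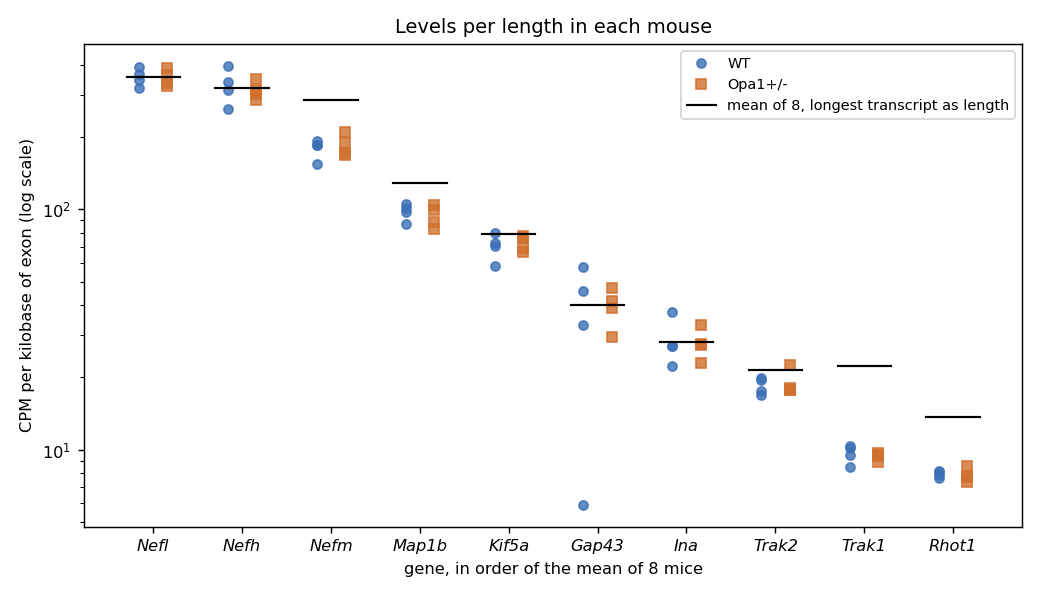
CPM per kilobase of joined exons (y axis, log scale) for each gene in order of its mean, in WT mice (circles) and *Opa1*+/- mice (squares); black lines give the mean of 8 mice with the longest annotated transcript as length. *Nefl* and *Nefh* are highest and *Rhot1* lowest, and the line of *Trak1* lies well above its points.

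The surrounding genes of both systems were examined as lists. Of 36 other genes of the axonal cytoskeleton (tubulins, microtubule-associated proteins, stathmins, spectrins, ankyrins and other intermediate filaments), 36 were tested and 0 passed either the adjusted threshold or an unadjusted p of 0.05 in edgeR. Of all genes, 0.0258% passed the first, and 3.51% (higher) and 3.22% (lower) the second. The groups did not overlap in 0 of the 36, beside 1.98% (higher) and 2.33% (lower) of all genes. The median log2 fold change of the 36 was 0.025, with 24 positive and 12 negative, beside 3.95e-04 over all genes. The 3 with the lowest p were *Vim*, *Nes* and *Map2*. *Vim*, the vimentin of glia and mesenchyme, was 490.0 ± 46.1 CPM in the WT group and 558.9 ± 97.2 CPM in the *Opa1*+/- group (SD, n = 4 each, adjusted p = 0.7899, edgeR).

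*Nes*, which encodes nestin, was 40.6 ± 0.639 and 44.9 ± 6.69 CPM, and *Map2*, a dendritic microtubule-associated protein, was 237.4 ± 24.8 and 216.0 ± 20.9 CPM (SD, n = 4 each), with adjusted p-values of 0.7902 and 0.802 in edgeR. *Mapt*, which encodes tau, had a log2 fold change of 0.11 (SE 0.0940, adjusted p = 0.843, edgeR). *Tubb3* had one of 0.041 (SE 0.172, adjusted p = 0.972, edgeR) and *Prph* one of 0.13 (SE 0.359, adjusted p = 0.959, edgeR), and both were lowest in WT mouse 6.

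Of 53 other genes of axonal and mitochondrial transport (kinesins, dynein and dynactin subunits and their adaptors), 50 were tested and 0 passed the adjusted threshold in edgeR. At an unadjusted p under 0.05, 0 were higher and 3 were lower in *Opa1*+/- mice, which is 6.0% of the list beside the 3.22% of all genes. This count rested on single mice, being 5 without WT mouse 6 and 1 without WT mouse 5, *Opa1*+/- mouse 2 or *Opa1*+/- mouse A. Over all genes the number at that p, in either direction, moved too. It was 1302 of 19366 with all mice and 1517 of 19411 without WT mouse 6. It was 1051 of 19314 without WT mouse 5, 1087 of 19391 without *Opa1*+/- mouse 2 and 942 of 19431 without *Opa1*+/- mouse A. The median log2 fold change of the list was 0.011, with 29 positive and 21 negative. The 3 lower genes were *Ranbp2*, *Spag9* and *Armcx3*.

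*Ranbp2*, a nuclear pore protein that also binds kinesin-1, was 123.5, 132.1, 118.4 and 128.5 CPM in WT mice 4, 5, 6 and 8 and 109.3, 112.1, 110.8 and 108.2 CPM in the *Opa1*+/- mice 2, 7, A and B. Every *Opa1*+/- mouse was below every WT mouse, with a log2 fold change of -0.19 (SE 0.0555, adjusted p = 0.722, edgeR). *Spag9*, a scaffold that links kinesin-1 and dynein to cargo, also did not overlap between the groups, at 265.8 ± 9.36 and 239.2 ± 6.33 CPM (SD, n = 4 each, log2 fold change -0.15, adjusted p = 0.722, edgeR). *Armcx3*, an outer mitochondrial membrane protein that interacts with Miro and TRAK2, was 88.4 ± 5.33 and 79.8 ± 2.19 CPM (SD, n = 4 each, log2 fold change -0.15, adjusted p = 0.722, edgeR). In the list, 2 genes (4.0%) lay wholly lower and 1 (2.0%) wholly higher in *Opa1*+/- mice, beside 2.33% and 1.98% of all genes. The higher one, *Dctn1*, the large dynactin subunit, is named because of its values, with a log2 fold change of 0.097 (SE 0.0552, adjusted p = 0.766, edgeR).

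The genes whose log2 CPM followed a given gene most closely over the 8 mice were sought among 17965 others with a mean of at least 1 CPM. For *Nefl* these were *Hsbp1l1* (r = 0.965), *Gm37249* (r = 0.935) and *Larp7* (r = 0.925). For *Kif5a* they were *Cacna1b*, a presynaptic calcium channel subunit (r = 0.978), *Gm12428* (r = 0.973) and *Gnao1*, a neuronal G protein subunit (r = 0.973). For *Trak2* they were *A430046D13Rik* (r = 0.916), *Borcs6* (r = 0.910), a subunit of the complex that couples lysosomes to kinesin, and *Gm14827* (r = 0.908). With so many genes set against 8 mice these values only describe the libraries.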

How the data were processed

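Cochlear RNA of 4 WT and 4 *Opa1*+/- mice was analysed, with groups taken from the sample labels. The authors prepared CORALL libraries with molecular identifiers, sequenced them as paired reads of 80 nucleotides and mapped them to GRCm38 with STAR. The counting program and its use of strand are not given in the sources used here. The authors deposited raw counts per gene symbol for each mouse. The 15 entries without a symbol (0.111 to 0.124% of counts) were left out.

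Genes with a mean DESeq2-normalized count over 10 were tested with edgeR 4.0.16 (TMM, quasi-likelihood test, Benjamini-Hochberg adjustment over 19366 genes, threshold 0.05). In 3 simulated data sets, 409 of 600 changed genes were recovered and 39 unchanged genes called. Single values per mouse were compared by exact two-sided permutation tests over 70 arrangements, whose smallest p is 0.0286. Intervals are 95%. Positions and lengths came from GENCODE vM21, which lists 45236 of the 47502 symbols. TMM factors were 0.948 to 1.06. Alternatives used DESeq2 1.42.0, limma 3.58.1 voom, other library sizes and filters, robust estimation, mice left out, and a covariate added later. Tables and plots were made in matplotlib 3.10.9 and Python 3.11.15, and models in R 4.3.3. The 10 genes and all lists were chosen with earlier results of these data known. Named beside the 10 are *Opa1*, 7 relatives, the 3 genes of lowest p in each list, and the 3 genes most like *Nefl*, *Kif5a* and *Trak2*. *Dctn1*, the nociceptive genes and the genes most like *Gap43* and *Ina* were named after their values were seen. Where nothing states separate extractions, p-values measure only the spread between these 8 samples, and whether a library held 1 or both ears of a mouse is not given in the labels.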

Additional observations from a re-analysis of the deposited data

Results flagged for a closer look

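Within a genotype, a value was singled out where the lowest or highest of 4 mice stood apart from the nearest other by a share of the whole range above Dixon's 95% critical value. Of 48 groups of 4 mice examined, 7 were singled out. A rate of about 1 in 20 holds for independent, normally spread values. These groups share mice and genes, so the 7 cannot be set against that rate. *Trak2* in *Opa1*+/- mouse 2, at 158.8 CPM, had a gap of 0.923 of the range. The ratio of *Ina* to *Nefl* in WT mouse 6, at 0.1034, had a gap of 0.877. *Kif5a* as a share of the 3 *Kif5* genes stood apart in WT mouse 6 (39.99%, gap 0.914, the lowest) and in *Opa1*+/- mouse 7 (46.95%, gap 0.858, the highest). Among the summed marker genes, those of hair cells stood apart in *Opa1*+/- mouse B (377.3 CPM, gap 0.884), those of neutrophils and marrow in WT mouse 4 (1574 CPM, gap 0.900) and those of skeletal muscle in WT mouse 6 (2924 CPM, gap 0.835). *Gap43* in WT mouse 6 was not singled out by this measure, because the other 3 WT mice are themselves spread from 50.5 to 88.0 CPM.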

How the results depend on the processing

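Under all 18 alternatives, 0 of the 10 genes were called, 0 had an unadjusted p under 0.05 and in 0 did the genotypes separate. The lowest adjusted p was 0.656 and the lowest unadjusted p 0.166. *Map1b* and *Trak1* kept a negative sign in all 18, and 18 of the 180 values of the 10 genes changed sign, all of them in the other 8 genes. No paired analysis was possible because the animals of the 2 genotypes share no number.

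With 1 mouse left out at a time, the log2 fold change ranged from -0.061 to 0.038 for *Nefl*, from -0.031 to 0.085 for *Nefm*, from -0.16 to 0.042 for *Nefh* and from -0.14 to 0.12 for *Ina*. It ranged from -0.21 to 0.47 for *Gap43*, from -0.037 to 0.11 for *Kif5a*, from -0.052 to 0.074 for *Trak2* and from -0.056 to 0.018 for *Rhot1*. The log2 differences in ratios ranged from 0.019 (without WT mouse 4) to 0.094 (without WT mouse 6) for *Nefm* to *Nefl*, from -0.10 to 0.068 for *Nefh* to *Nefl*, from -0.078 to 0.14 for *Ina* to *Nefl*, from -0.24 to 0.97 for *Gap43* to *Nefh*, from -0.016 to 0.11 for *Trak2* to *Trak1* and from -0.028 to 0.035 for the *Kif5a* share. For summed marker genes they ranged from -0.062 to 0.015 (neuron), -0.16 to 0.10 (hair cell), -0.074 to 0.56 (neutrophil and marrow), -1.43 to 0.051 (skeletal muscle) and -0.17 to 0.79 (nociceptive neuron). Those of Schwann cells and myelin ranged from 0.11 to 0.25 and those of bone from -0.17 to -0.057. The erythroid sum had a log2 difference of 0.94 without WT mouse 4 (exact permutation p = 0.0286).

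With the nociceptive sum as a covariate, chosen after the data were seen, the log2 fold change was 0.020 for *Nefh*, 0.081 for *Ina* and -0.020 for *Kif5a*, turning their sign, and moved to 0.0071 for *Gap43*, -0.11 for *Map1b*, -0.012 for *Trak1*, 0.064 for *Nefm*, 0.061 for *Trak2*, -0.022 for *Nefl* and -0.0087 for *Rhot1*. It was 0.0099 for *Ina* under limma voom, and 0.035 for *Rhot1* without *Opa1*+/- mice A and B. Of the 36 other cytoskeleton genes, 0 to 1 were higher and 0 to 1 lower at an unadjusted p under 0.05 with 1 mouse left out, and 1 was lower under voom and 1 with the covariate. Of the 50 other transport genes, 0 to 1 were higher and 1 to 5 lower with 1 mouse left out (5 without WT mouse 6, 1 without WT mouse 5, *Opa1*+/- mouse 2 or *Opa1*+/- mouse A). With the covariate 1 was higher and 5 were lower, under DESeq2 1 was higher, and without *Opa1*+/- mice A and B together 1 was lower. The number of all genes at an unadjusted p under 0.05 moved as well. It was 1302 in the main fit and ran from 565 (without A and B together) to 2006 (without WT mouse 4). The relation of *Trak2* to the erythroid sum was r = 0.0262 without WT mouse 6. The cause of these shifts was not tested. Over all genes, 5 were called by edgeR, 23 by DESeq2, 10 by voom and by robust estimation, 12 without a filter, 1 when library sizes ignored mitochondrial genes and 2 with the covariate. With 1 mouse left out, edgeR called 9 without WT mouse 4, 8 without *Opa1*+/- mouse 7, 2 without WT mouse 5, 1 without WT mouse 6 or 8 or *Opa1*+/- mouse A or B, and 0 without *Opa1*+/- mouse 2, where 1087 genes had an unadjusted p under 0.05 and *Opa1* itself had an adjusted p of 0.0704. DESeq2 and voom were not run with mice left out. All but *Gap43* had at least 880 counts in every mouse, and neither depth nor the number of mice was varied by simulation.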

Other observations

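For 2 further genes the closest patterns over the 8 mice were looked up after their values were seen. *Gap43* was followed most closely by *Anxa2* (annexin A2, r = 0.994), *Trappc3l* (r = 0.994) and *Gal* (the neuropeptide galanin, r = 0.992). *Ina* was followed by *Smyd2* (r = 0.995), *Clec2l* (r = 0.974) and *Nsf* (the ATPase that recycles membrane fusion proteins, r = 0.974). WT mouse 6 is the lowest of the 8 in *Gap43* and the highest in *Ina*. Over the other 7 mice these r were 0.930 to 0.952 for *Gap43* and 0.947 to 0.990 for *Ina*. The genes had been picked from 17965 by their r over all 8 mice, which include these 7. The values over 7 mice are therefore no separate check and only describe the libraries.

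The 18 nociceptive genes were not equally low in WT mouse 6. *Scn11a* had 19 counts there against 540 to 1004 in the other 7 mice, and *Calca*, which encodes the neuropeptide CGRP, had 37 against 841 to 1465. *P2rx3* had 356 against 763 to 1590, *Tac1* had 327 against 530 to 808, and *Runx1*, which blood cells also use, had 422 against 473 to 623.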
